A study of Mus musculus with 21 samples.

Results

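RNA of condensing spermatids was compared with RNA of round spermatids in mice that lack the histone variant H2A.L.2 (*H2al2* KO), to describe whether the RNA changes of late spermatids take place without this protein. The comparison used the 6 libraries whose labels gave the genotype H2al2 KO and the cell type round or condensing spermatids, 3 of each, out of 21 libraries in the series, and all 24456 genes listed in the count files. The 6 wild-type (WT) libraries of the same cell types, also 3 of each, served as the reference. All were total RNA of germ cell fractions purified from mouse testis, depleted of ribosomal RNA and sequenced on a stranded protocol. The labels give neither the strain nor the age of the animals, nor the part of the gene that was deleted, nor whether replicates came from separate animals, so the p-values below measure the spread between these fractions, which may be technical.

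Round spermatids are the haploid cells that leave meiosis, and they transcribe the genes for the acrosome, the flagellum and the sperm head. As they elongate and condense, histones become hyperacetylated and are exchanged for transition proteins and then for protamines, transcription stops, and the late proteins are made from stored mRNA. H2A.L.2 is a short H2A variant of the testis that appears together with the transition proteins and takes part in their loading onto nucleosomes. In RNA of whole fractions, fewer cells of a type and less RNA per cell cannot be told apart, and all levels below are relative to the other RNA in the same library.

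In the files H2A.L.2 goes under the gene symbol *H2afb1*, an older symbol of RefSeq's *H2al2a* on mouse chromosome 2 (GRCm38.p6, chr2:17996417-17996958, minus strand, protein coding). Its level, in normalised CPM (counts scaled to a common library size of reads on genes), was 24.4, 24.3 and 19.9 in the 3 *H2al2* KO round spermatid libraries and 25.7, 34.97 and 29.03 in the 3 *H2al2* KO condensing ones. The WT libraries held 193, 197 and 202 in round and 185, 155 and 249 in condensing spermatids, so that no *H2al2* KO library overlapped a WT library. The KO mean was 11.6% of the WT mean in round spermatids (log2 difference -3.11 ± 0.16, adjusted p = 3.33e-09, quasi-likelihood test of edgeR, Benjamini-Hochberg adjustment) and 15.2% in condensing spermatids (-2.71 ± 0.15, adjusted p = 2.19e-08). Where in the gene the remaining reads lie cannot be read from counts per gene. In the comparisons of stages that follow, a value with ± and an adjusted p is the log2 fold change of condensing over round spermatids with its SE, from 3 against 3 libraries and the same test. Within the KO the remaining *H2afb1* reads were slightly higher in condensing spermatids (0.41 ± 0.13, adjusted p = 0.0167), a call that was lost under 5 of 15 alternatives, for example without condensing replicate 2 (0.27, adjusted p = 0.138).

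The labelled cell types were checked against marker genes. Markers of elongating and condensing spermatids summed to 25112 to 32348 CPM in *H2al2* KO round and 28923 to 43004 CPM in *H2al2* KO condensing libraries, which overlapped. Of the list's 15 tested members, 5 rose, 1 fell and 9 did not pass the test. The share higher was 33.3% and the share lower 6.67%, beside 31.7% and 24.9% of all tested genes. Of 14 round spermatid markers none rose and 11 fell (78.6%), with a median log2 change of -0.62, against 0.04 for all genes tested. Markers of other cell types differed between the fractions. Sertoli cell markers summed to 65.9 to 83.7 CPM in KO round and to 666 to 774 CPM in KO condensing libraries, and all 17 tested members rose (median 3.53). Leydig cell markers summed to 7.03 to 12.1 CPM in round and 100.2 to 146 CPM in condensing libraries, and all 8 tested members rose (median 3.53). Endothelium markers, with 5 of 5 higher, held 26.1 to 36.2 and 57.9 to 71.2 CPM. Peritubular myoid markers, with 5 of 6 higher, held 325 to 425 CPM in round and 336 to 403 in condensing libraries, and macrophage markers, with 1 of 5 higher, 19.7 to 26.3 and 20.6 to 30.2 CPM. The red blood cell markers held 0.402 to 1.52 CPM in round and 18.6 to 26.5 CPM in condensing libraries, nearly all from *Alas2*, the only one tested. Epididymis epithelium markers were at or near 0 and none could be tested. Spermatogonium markers, with 5 of 10 higher, held 50.04 to 67.4 and 82.5 to 94.6 CPM, and spermatocyte markers, with 8 of 14 higher and 4 lower, 1245 to 1550.2 and 1523 to 1690.0 CPM. In WT, Sertoli markers held 87.4 to 118 CPM in round and 728 to 938 CPM in condensing spermatids. These sums overlapped those of the KO in condensing but not in round libraries. Leydig markers in WT held 13.5 to 16.2 CPM in round and 162 to 251 CPM in condensing libraries, above all KO libraries of the same stage. The difference between the genotypes in these sums was not tested.

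**Figure D1:**
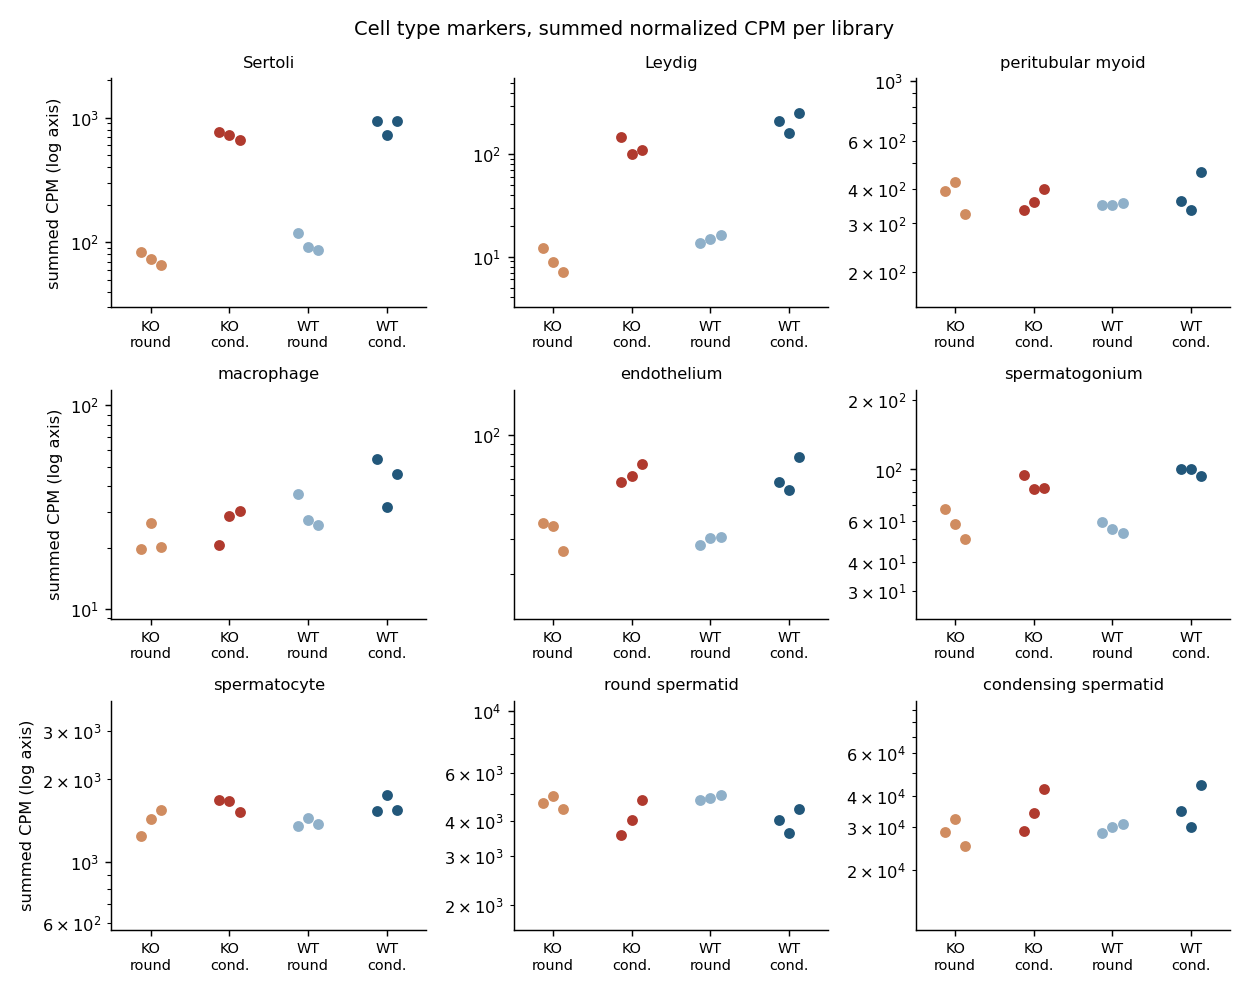
Summed normalised CPM of 9 marker lists (log axis) in each of the 12 libraries, by genotype and stage; each point is 1 library. Sertoli and Leydig markers were higher in every condensing library than in every round library of the same genotype, and the sum over condensing spermatid markers overlapped between the stages.

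Between round and condensing spermatids of the *H2al2* KO, 13557 genes had enough counts to be tested. At an adjusted p under 0.05, 4296 genes (31.7%) were higher and 3379 (24.9%) were lower in condensing spermatids. At least 2-fold changes were less even, with 2235 genes higher (16.5%) and 326 lower (2.4%). These 2-fold counts depended on the genes that were tested, with 1310 higher and 181 lower among genes with at least 10 counts in every library, and 532 lower with no filter. Direction moved with abundance. Of the 1097 genes that averaged under 2 CPM over the 6 libraries, 41.8% were higher and 6.11% lower. Of the 3624 genes at 50 CPM or more, 559 (15.4%) were higher and 1710 (47.2%) were lower. A gene of low abundance could enter the test through one stage alone. The part of that, and of the Sertoli and Leydig RNA above, in this pattern was not tested.

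**Figure D2:**
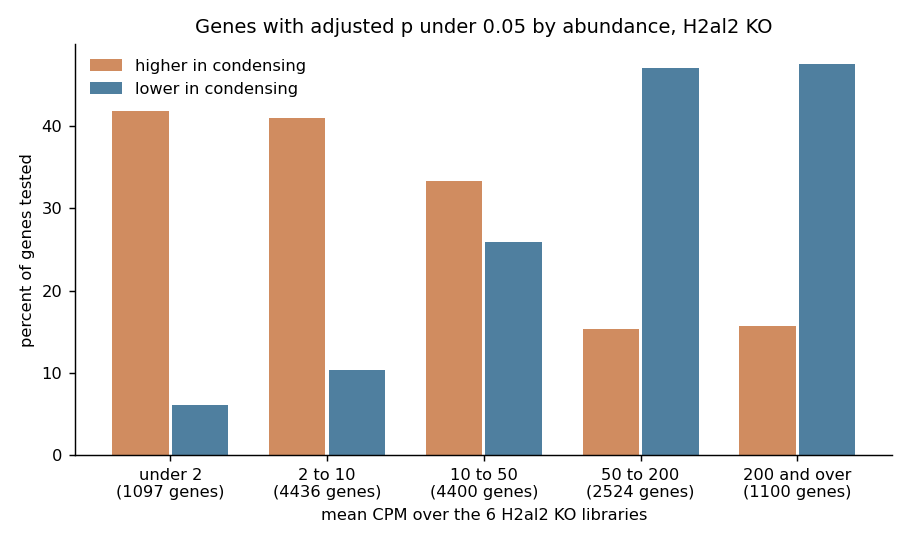
Percent of tested genes called higher (orange) or lower (blue) in *H2al2* KO condensing than in *H2al2* KO round spermatids, in 5 classes of mean CPM. Calls were mostly higher under 10 CPM and mostly lower from 50 CPM upward.

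Most genes of the flagellum's core were lower in condensing spermatids. The axoneme is the microtubule shaft of the tail, with its dynein arms, radial spokes and inner proteins. Of 59 tested members, 2 rose, 43 fell and 14 did not pass the test. The share that fell was 72.9%, against 24.9% of all tested genes and 47.2% of those at 50 CPM or more. The median log2 change was -0.49 (0.04 for all genes tested) and -0.57 in WT. *Spag6l*, which encodes a protein of the central pair of microtubules, had the largest fall of the list, from 200.2, 197 and 210.1 CPM in round to 87.6, 99.8 and 98.4 CPM in condensing libraries (-1.07 ± 0.09, adjusted p = 1.82e-07). *Tekt2*, a tektin that forms filaments inside the doublet microtubules, went from 418, 452 and 427 to 217, 214 and 235 CPM (-0.94 ± 0.09, adjusted p = 6.85e-07). *Cfap58*, a coiled-coil protein of the tail, went from 269, 349 and 332 to 155, 162 and 172 CPM (-0.94 ± 0.11, adjusted p = 3.17e-06). In each of these genes every condensing library lay below every round library. The most abundant member, the outer arm dynein heavy chain *Dnah8*, held 2286 to 2558 CPM in round and 2237 to 2662 CPM in condensing libraries and did not pass the test (0.02 ± 0.11, adjusted p = 0.912), and the inner arm dynein *Dnah7a* rose (0.53 ± 0.09, adjusted p = 0.000214).

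Axoneme genes are known targets of RFX factors, whose X-box sites contain the core GTTGCC. It was searched on both strands in the 250 bases before the start of each gene in RefSeq (GRCm38.p6). At least 1 copy stood before 17 of the 53 axoneme genes with a promoter sequence (32.1%), before 7 of 30 intraflagellar transport genes (23.3%), before 4 of 36 acrosome genes (11.1%) and before 13.6% of the 10860 tested genes with one. The CatSper and ion transport list, which also fell, had a copy before 1 of 14 genes (7.14%). Among genes called lower the share was 17.0%, and among those called higher 10.8%. The full cyclic AMP response element TGACGTCA, the site of the spermatid activator CREM, stood before 3.12% of all tested genes and 3.09% of those called lower. These matches describe letters and not binding. The 150 bases before the start are shown for 2 axoneme genes that fell and for 2 genes of late spermatids that rose, described below, with GTTGCC and its reverse complement GGCAAC in capitals. They are examples, with *Tekt2* and *Cfap58* chosen after their values were seen, and do not compare genes that fell with genes that rose. The windows of *Tssk6* and *Smcp* hold no copy.
Tekt2 (chr4:126325689-126325838, minus strand): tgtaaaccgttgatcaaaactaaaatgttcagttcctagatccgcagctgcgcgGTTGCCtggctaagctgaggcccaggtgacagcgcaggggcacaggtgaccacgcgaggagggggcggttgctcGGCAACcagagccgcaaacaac
Cfap58 (chr19:47937562-47937711, plus strand): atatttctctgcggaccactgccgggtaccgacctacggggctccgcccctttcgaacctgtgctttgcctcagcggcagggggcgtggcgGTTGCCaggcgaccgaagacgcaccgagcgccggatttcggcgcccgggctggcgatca
Tssk6 (chr8:69902034-69902183, plus strand): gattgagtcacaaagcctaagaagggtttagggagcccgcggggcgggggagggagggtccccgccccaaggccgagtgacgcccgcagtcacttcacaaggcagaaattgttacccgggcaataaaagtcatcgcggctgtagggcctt
Smcp (chr3:92589074-92589223, minus strand): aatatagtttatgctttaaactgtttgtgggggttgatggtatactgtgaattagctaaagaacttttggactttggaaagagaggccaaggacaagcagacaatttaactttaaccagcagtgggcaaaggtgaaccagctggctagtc

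The carriers and regulators of flagellum assembly moved less evenly. Of the intraflagellar transport list's 35 tested members, 5 rose, 19 fell and 11 did not pass the test (median -0.27). The share lower was 54.3%, against 24.9% of all tested genes and 47.2% of those at 50 CPM or more. *Ift140*, a core subunit of the retrograde complex, went from 668, 589 and 638 to 502, 472 and 491 CPM (-0.35 ± 0.09, adjusted p = 0.00456), and *Ift43* of the same complex fell most (-0.88 ± 0.10, adjusted p = 2.37e-06). The manchette is the transient microtubule skirt that shapes the head. Of its 28 tested members, 3 rose, 13 fell and 12 did not pass the test. The share lower, 46.4%, was near the 47.2% of all tested genes at 50 CPM or more. The largest fall was in *Fam205a1* (-1.27 ± 0.11, adjusted p = 2.03e-07). The largest rise was in *Mllt10* (1.54 ± 0.10, adjusted p = 7.62e-09), which is better known as a cofactor of the methyltransferase DOT1L. Among 17 sperm actin-related and perinuclear theca genes, 3 rose and 4 fell (17.6% and 23.5%, beside 31.7% and 24.9% of all tested genes). *Actl7b* went from 748, 721 and 708 to 408, 406 and 445 CPM (-0.77 ± 0.09, adjusted p = 5.57e-06), and *Plcz1*, the phospholipase that activates the egg, from 292, 467 and 377 to 440.1, 547 and 545 CPM (0.45 ± 0.14, adjusted p = 0.0139), with overlap between the stages. The call of *Plcz1* was lost without round replicate 1 (0.28, adjusted p = 0.0696), without condensing replicate 2 (0.38, adjusted p = 0.0728) and in the fit on 18 libraries (0.41, adjusted p = 0.0881).

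Genes of the acrosome, the enzyme vesicle over the sperm nucleus, also fell. Of the list's 42 tested members, 4 rose, 31 fell and 7 did not pass the test (median -0.53, WT -0.73). The share lower was 73.8%, against 24.9% of all tested genes and 47.2% of those at 50 CPM or more. The round spermatid markers above share *Acrv1*, *Spaca1*, *Spaca7*, *Acr*, *Acrbp* and *Izumo1* with this list. They also share *Catsper3* and *Catsper4* with the CatSper list, so these falls are partly those of the same genes. *Acrbp*, which binds the protease precursor proacrosin, went from 457, 487 and 460.4 to 253, 255 and 262 CPM (-0.85 ± 0.09, adjusted p = 1.53e-06), and the serine protease *Prss21* had the largest fall (-0.97 ± 0.10, adjusted p = 1.14e-06). *Crisp2*, an abundant cysteine-rich secretory protein, went the other way, from 1823, 2536 and 2404 to 3153, 3899 and 3973 CPM (0.72 ± 0.13, adjusted p = 0.000305). No member of the CatSper and ion transport list rose. CatSper is the calcium channel of the tail, and of the list's 18 tested members 14 fell (77.8%, median -0.57). *Catsper2* went from 381, 370.4 and 425 to 242, 242 and 244 CPM (-0.68 ± 0.09, adjusted p = 1.87e-05), and *Catsper1*, a pore subunit, from 133, 145 and 139 to 70.2, 79.02 and 75.9 CPM (-0.87 ± 0.09, adjusted p = 1.25e-06). Neither overlapped between the stages.

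A smaller set of genes for the outer structures of the tail rose. The outer dense fibres and the fibrous sheath surround the axoneme, and the mitochondrial sheath is the wrap of mitochondria around the midpiece. As lists they fell more often than they rose, with 3 higher and 10 lower of 18 tested members (16.7% and 55.6%, median -0.32) and 3 higher and 10 lower of 16 (18.8% and 62.5%, median -0.36). Of all tested genes 31.7% were higher and 24.9% lower, and of those at 50 CPM or more 15.4% and 47.2%. Several of the most abundant members of these lists nevertheless rose. *Odf1*, the main outer dense fibre protein, went from 1526, 1679 and 1297 CPM in *H2al2* KO round to 2538, 3438 and 3867 CPM in *H2al2* KO condensing libraries (1.14 ± 0.15, adjusted p = 9.74e-06). *Smcp*, a cysteine-rich protein of the mitochondrial capsule, went from 1779, 2309 and 1837 to 3415, 4302 and 4870.4 CPM (1.10 ± 0.14, adjusted p = 9.45e-06). *Oaz3*, the testis antizyme that inhibits ornithine decarboxylase, went from 1808, 2169 and 1664 to 2536, 3173 and 3742 CPM (0.76 ± 0.14, adjusted p = 0.000298). All condensing libraries of these genes lay above all round libraries. *Odf2* (5234 to 6138 CPM in round, 4809 to 6149.8 in condensing) and the fibrous sheath anchor *Akap4* (3028 to 3673 and 3212 to 4514) overlapped and did not pass the test (-0.07 ± 0.12 and 0.23 ± 0.13, adjusted p = 0.648 and 0.144), though *Akap4* did without condensing replicate 1 (0.32, adjusted p = 0.0291). Among the testis-specific serine kinases 2 rose and 5 fell of 11 (18.2% and 45.5%). *Tssk6*, a kinase needed for chromatin condensation in sperm, went from 310.4, 306 and 207 to 446, 616 and 766 CPM (1.17 ± 0.18, adjusted p = 4.75e-05), and *Tssk5* fell (-1.06 ± 0.16, adjusted p = 5.79e-05). *Azin2*, an activator of ornithine decarboxylase, rose from 277, 268 and 206 to 545, 706 and 857 CPM (1.51 ± 0.15, adjusted p = 9.39e-07), and the calmodulin gene *Calm2* from 104, 92.3 and 107 to 337, 291 and 296 CPM (1.62 ± 0.10, adjusted p = 6.61e-09). Condensing replicate 1 was the lowest of its group for *Odf1*, *Smcp*, *Oaz3*, *Tssk6* and *Azin2*. It also held the least summed RNA of condensing spermatid markers. That list includes all of these genes but *Azin2*, so the observations are not separate. The part of late spermatid RNA in these results was not tested.

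**Figure D3:**
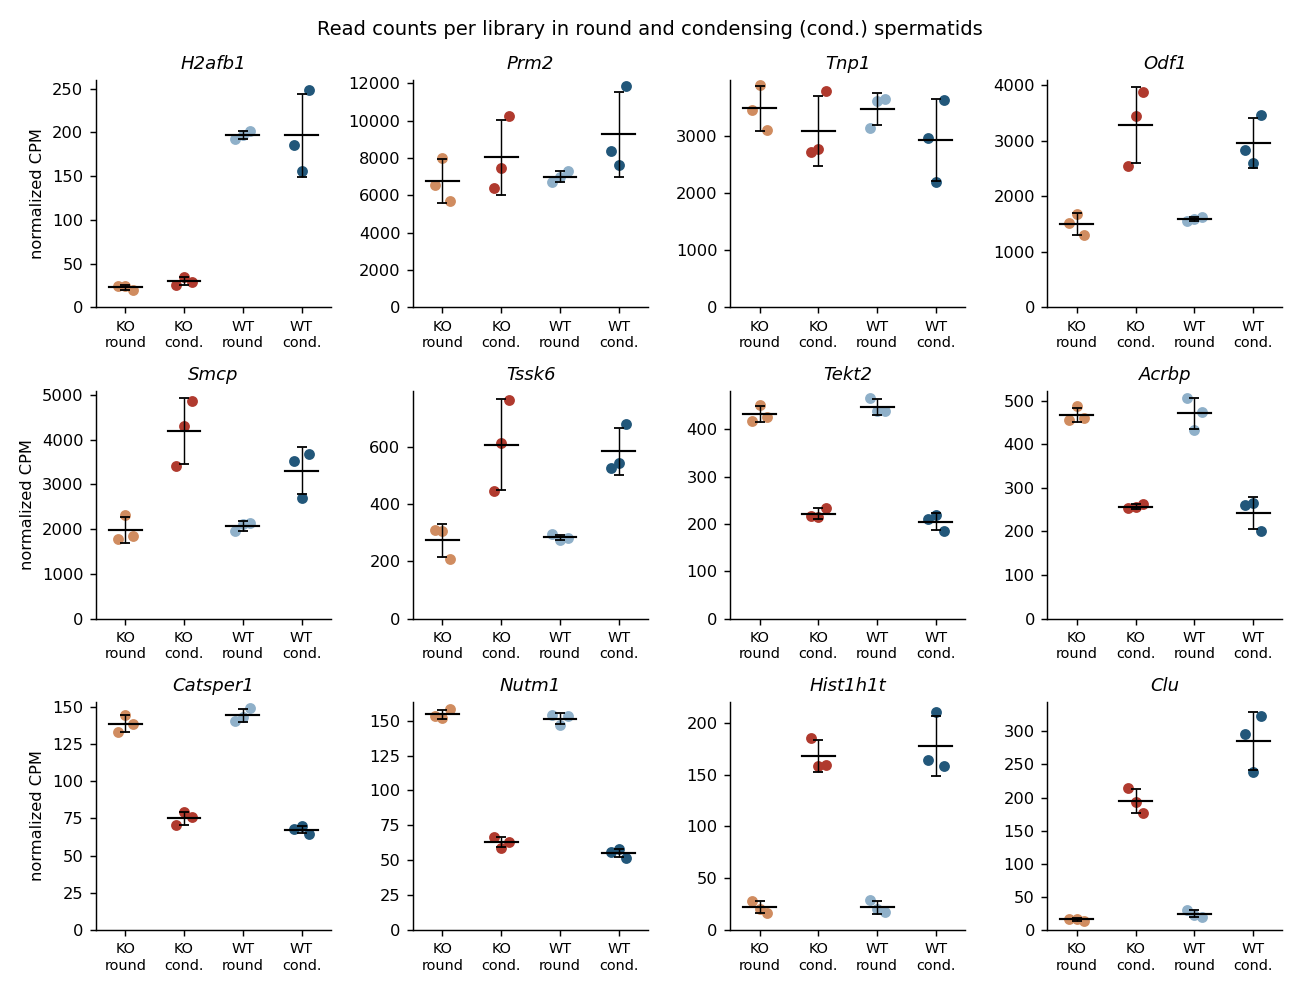
Normalised CPM of 12 genes in each library of *H2al2* KO and WT round and condensing (cond.) spermatids; points are libraries, bars the mean and whiskers the SD (n = 3). *Odf1*, *Smcp*, *Tssk6* and *Hist1h1t* were higher and *Tekt2*, *Acrbp*, *Catsper1* and *Nutm1* lower in every condensing library than in every round library of both genotypes, *Prm2* and *Tnp1* overlapped within the KO, and *H2afb1* was low in the KO at both stages.

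RNA of the proteins that replace histones was abundant at both stages and did not pass the test in *H2al2* KO. *Tnp1* and *Tnp2* encode the transition proteins, and *Prm1* and *Prm2* the protamines. *Prm2* held 6539, 8025 and 5721 CPM in round and 6394, 7479 and 10279 CPM in condensing libraries (0.27 ± 0.17, adjusted p = 0.18). In WT it held 6729, 6991 and 7294 CPM in round and 8366, 7622 and 11884 CPM in condensing libraries and was called higher (0.42 ± 0.16, adjusted p = 0.0431), while the difference between the genotypes, given below, was not called. This WT call is near the threshold, and WT round replicates 2 and 3 differed little beyond sampling noise. *Prm1* held 3729.8, 3940.2 and 3122 CPM in round and 2907, 3233 and 4501 CPM in condensing libraries (95% interval of the log2 change -0.32 to 0.31). *Tnp1* held 3446, 3898 and 3103 CPM in round and 2715, 2764 and 3790.3 CPM in condensing libraries (interval -0.45 to 0.14). *Tnp2* ran from 2983 to 3805 CPM in round and from 2709.6 to 3845 CPM in condensing libraries (interval -0.41 to 0.18). The stages overlapped for all 4 genes, and in each of them condensing replicate 3 was the highest of its group. Without that library the fall of *Tnp1* passed the test (-0.34, adjusted p = 0.0258).

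Genes of the factors that act on histones moved in both directions. Of the acetylation and eviction list's 26 tested members, 6 rose, 13 fell and 7 did not pass the test (median -0.23). The shares were 23.1% higher and 50% lower, beside 31.7% and 24.9% of all tested genes. The share lower was near the 47.2% of all tested genes at 50 CPM or more. *Nutm1*, the cofactor that recruits p300 for histone hyperacetylation, had the largest fall, from 153, 152 and 158 to 66.3, 58.96 and 63.1 CPM (-1.28 ± 0.09, adjusted p = 2.27e-08). *Brd2*, a reader of acetylated histones, fell from 582, 539 and 618 to 363, 349.9 and 361 CPM (-0.68 ± 0.09, adjusted p = 2.00e-05), as did the ubiquitin ligase gene *Phf7* (-0.46 ± 0.10, adjusted p = 0.000803). *Trrap*, a scaffold of acetyltransferase complexes, rose from 41.8, 38.8 and 31.98 to 118, 117 and 119 CPM (1.67 ± 0.11, adjusted p = 7.93e-09). Among histone chaperones 8 rose and 4 fell of 21 (38.1% and 19%, against 31.7% and 24.9% of all tested genes), with *Chaf1a* of chromatin assembly factor 1 lower (-0.56 ± 0.09, adjusted p = 0.000131) and *Atrx*, at 3.62 to 7.45 CPM in round and 22.8 to 23.4 CPM in condensing libraries, higher (1.95 ± 0.19, adjusted p = 7.30e-07). *Dot1l*, the H3K79 methyltransferase, fell from 466, 440.4 and 420.5 to 227, 235 and 241 CPM (-0.90 ± 0.09, adjusted p = 1.09e-06).

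Among 13 spermatid histone variants and linker histones 6 rose and 1 fell (46.2% and 7.69%, beside 31.7% and 24.9% of all tested genes). The linker histone gene *Hist1h1t*, whose protein is first made in spermatocytes, rose from 28.3, 20.5 and 16.7 to 186, 159 and 159.6 CPM (2.96 ± 0.15, adjusted p = 7.75e-10), and *Hist1h2ba*, the testis H2B variant, from 66.8, 41.9 and 40.9 to 250.4, 215 and 244 CPM (2.26 ± 0.15, adjusted p = 1.66e-08). *H3f3a*, one of the genes for H3.3, fell (-0.31 ± 0.09, adjusted p = 0.00984). Of 44 tested replication-dependent histone genes, a list that shares *Hist1h1t* and *Hist1h2ba* with the variants, 15 rose and 2 fell (34.1% and 4.55%). The share higher was near that of all tested genes. Near-identical histone genes share reads, and reads with more than 1 alignment were not counted. Among transcription factors of haploid cells 2 rose and 13 fell of 23 (8.7% and 56.5%, median -0.29). Of all tested genes at 50 CPM or more, 15.4% were higher and 47.2% lower. *Rfx2*, which binds the X-box, went from 432, 451 and 374 to 305, 319 and 335 CPM (-0.37 ± 0.10, adjusted p = 0.00469), *Taf7l*, a testis subunit of TFIID, fell most (-0.80 ± 0.10, adjusted p = 1.11e-05), and *Mybl1*, an activator of pachytene genes, rose (0.61 ± 0.14, adjusted p = 0.00159), a call lost in the fit on 18 libraries (0.57, adjusted p = 0.0795).

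**Figure D4:**
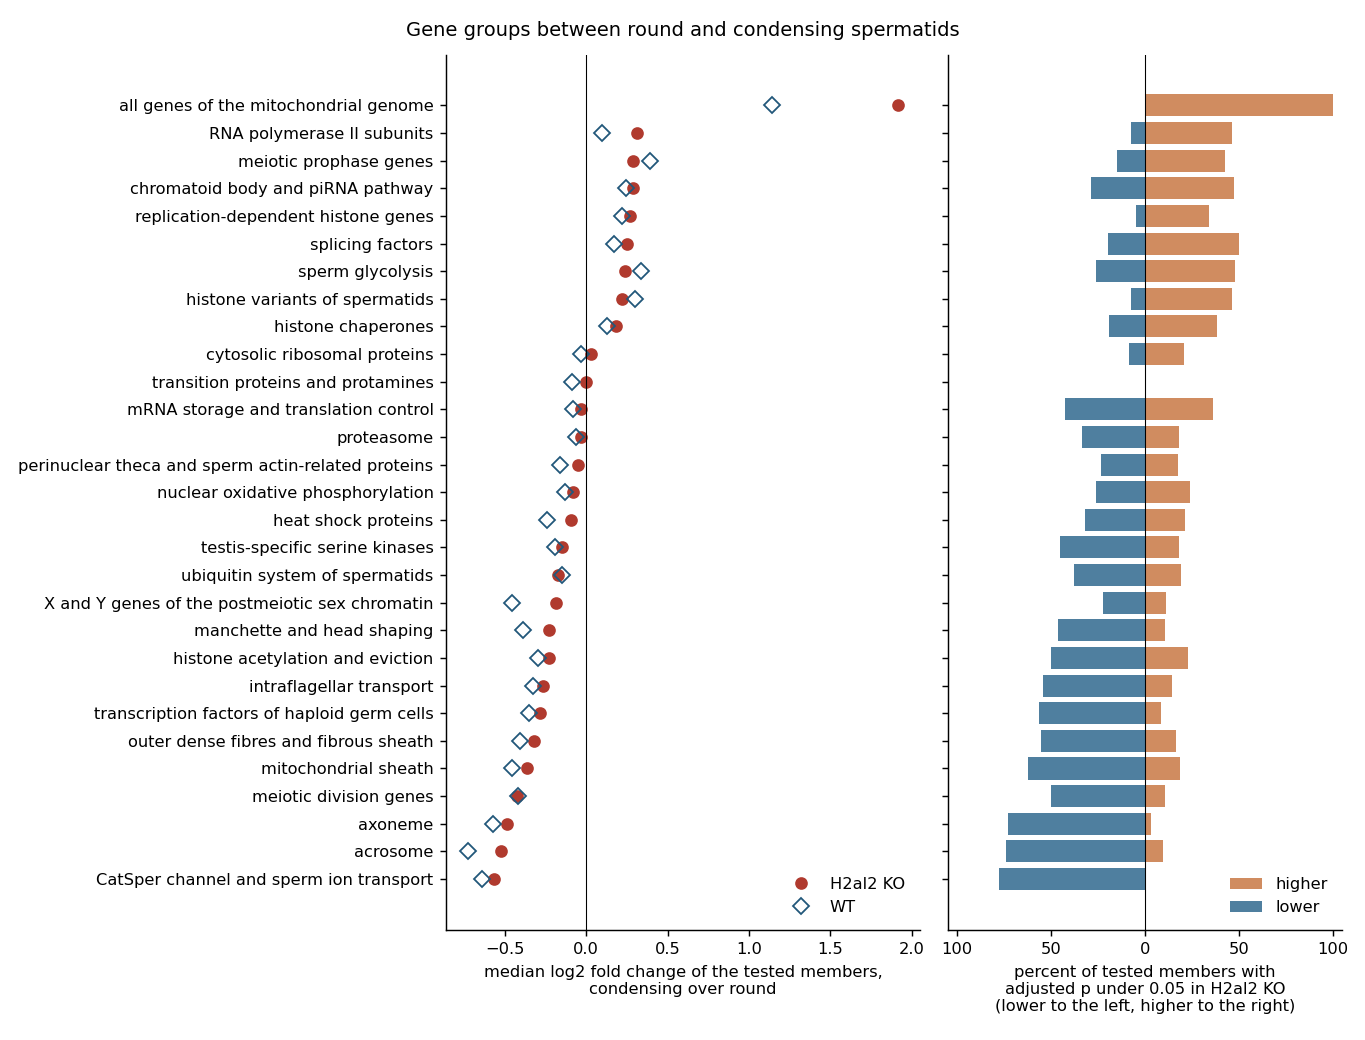
Left, median log2 fold change of the tested members of 29 gene groups, condensing over round spermatids, in *H2al2* KO (filled circles) and WT (open diamonds). Right, percent of the members called lower (to the left) or higher (to the right) in *H2al2* KO; the CatSper, acrosome and axoneme groups fell most often, and all 12 tested genes of the mitochondrial genome rose.

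Genes that transcribe and process RNA were read against the shares of all tested genes, 31.7% higher and 24.9% lower. Of those at 50 CPM or more 15.4% were higher and 47.2% lower. Of the 13 tested RNA polymerase II subunits 6 rose and 1 fell (46.2% and 7.69%), and of the 36 splicing factors 18 rose and 7 fell (50% and 19.4%). *Polr2b*, the second largest subunit, went from 28.8, 24.4 and 30.6 to 52.2, 40.7 and 41.2 CPM (0.69 ± 0.12, adjusted p = 0.000219). Of 33 genes for mRNA storage and translation control 12 rose and 14 fell (36.4% and 42.4%). *Pabpc1*, the main poly(A)-binding protein, fell from 2761, 2691 and 3037 to 2096, 2016 and 1941 CPM (-0.47 ± 0.10, adjusted p = 0.000978), whereas its partner *Paip1* rose (1.84 ± 0.13, adjusted p = 3.23e-08). In the chromatoid body and piRNA list, 10 rose and 6 fell of 21 (47.6% and 28.6%), with the tudor protein genes *Tdrd5* higher (17.7, 14.05 and 14.6 to 72.05, 66.4 and 59.6 CPM, 2.11 ± 0.12, adjusted p = 2.86e-09) and *Tdrd7* lower (-0.75 ± 0.09, adjusted p = 5.41e-06). Of 82 cytosolic ribosomal protein genes 17 rose and 7 fell, shares of members below those over all genes, and the most abundant, *Rpl41*, rose (0.49 ± 0.12, adjusted p = 0.00266). Of 39 proteasome genes 7 rose and 13 fell (17.9% and 33.3%), of 37 ubiquitin system genes 7 and 14 (18.9% and 37.8%), and of 28 heat shock genes 6 and 9 (21.4% and 32.1%). *Psmc3* of the 19S cap fell (-0.57 ± 0.09, adjusted p = 7.50e-05), *Psma7* of the core rose (1.98 ± 0.19, adjusted p = 7.03e-07), and *Hspa2*, the germ cell HSP70, fell (-0.51 ± 0.10, adjusted p = 0.000306).

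Genes of meiosis, whose proteins act before the round spermatid stage, did not all decline. Of 33 tested meiotic prophase genes 14 rose and 5 fell (42.4% and 15.2%, against 31.7% and 24.9% of all tested genes, median 0.29, and 0.18 with no filter), and of 28 meiotic division genes 3 rose and 14 fell (10.7% and 50%, median -0.43). Of all tested genes at 50 CPM or more, 15.4% were higher and 47.2% lower. The meiotic cohesin *Rec8* fell from 119, 115 and 106 to 46.03, 47.03 and 48.2 CPM (-1.25 ± 0.09, adjusted p = 3.81e-08) and the kinase *Plk1* also fell (-1.22 ± 0.10, adjusted p = 1.24e-07). *Sycp2*, of the synaptonemal complex, held 58.8, 162 and 157 CPM in round and 275, 288 and 248 CPM in condensing libraries (1.12 ± 0.24, adjusted p = 0.00111), a call lost in the fit on 18 libraries (1.08, adjusted p = 0.0524). Round replicate 1 was the lowest of its group for *Sycp2*, for *Sycp1* (52.6, 108 and 111 CPM), for *Tex15* (126, 387 and 364 CPM) and for *Smc1b* (130.3, 355 and 329.9 CPM). *Pou5f2*, a spermatocyte marker, rose from 3.48, 4.50 and 3.58 to 27.3, 20.6 and 19.4 CPM (2.55 ± 0.19, adjusted p = 4.00e-08). The part of remaining spermatocytes in these values was not tested.

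Of the 29 gene groups plotted, the one with the highest median change was the mitochondrial genome, which encodes the core subunits of the respiratory chain. The list by gene name held only its 2 ribosomal RNAs and was completed by chromosome after values had been seen. All 12 tested genes rose, with a median log2 change of 1.92 in *H2al2* KO and 1.14 in WT. *mt-Rnr2*, the large ribosomal RNA and the gene with most counts at both stages, went from 20666, 23123 and 22174 to 48202, 44615 and 44330.4 CPM (1.07 ± 0.12, adjusted p = 3.42e-06). *ND2*, a subunit of complex I, went from 104, 127 and 133 to 655, 639 and 501 CPM (2.32 ± 0.12, adjusted p = 1.63e-09), and *ND1* from 211, 264 and 287 to 1209, 1210.5 and 1055 CPM (2.21 ± 0.12, adjusted p = 1.98e-09). Mitochondrial RNA took 3.28% to 3.79% of the counts in KO round and 6.80% to 8.30% in KO condensing libraries. Its 2 ribosomal RNAs alone took 3.11% to 3.59% and 6.22% to 7.51%. The libraries were depleted of ribosomal RNA, and how far that acted on these 2 RNAs was not tested. Of 80 nuclear genes of oxidative phosphorylation 19 rose and 21 fell (23.8% and 26.2%, beside 31.7% and 24.9% of all tested genes). Of 23 glycolysis genes 11 rose and 6 fell (47.8% and 26.1%). *Hk1*, the hexokinase with a spermatogenic form, rose from 2772, 2944 and 2412 to 3844, 4829.5 and 5569 CPM (0.83 ± 0.14, adjusted p = 0.000101), the testis kinase *Pgk2* rose (0.45 ± 0.12, adjusted p = 0.00613) and the testis dehydrogenase *Ldhc* fell (-0.31 ± 0.10, adjusted p = 0.0138), a call lost without condensing replicate 2 (adjusted p = 0.0506) and with at least 10 counts in every library (adjusted p = 0.0501). The largest rise of that list was in *Ldhb*, from 3.75, 4.21 and 2.76 to 54.00, 54.2 and 48.5 CPM (3.88 ± 0.15, adjusted p = 7.92e-11), a dehydrogenase that Sertoli cells also express.

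The 10 largest fitted rises among genes at 10 CPM or more in condensing spermatids, all without overlap, were of *Rhox8*, *Trpc5os*, *Serpina5*, *Dmrta1*, *Alas2*, *Bhmt*, *Itgb5*, *Tpd52l1*, *Peg10* and *Aard*. *Rhox8*, a homeobox gene of Sertoli cells, held 0.134, 0.843 and 0.414 CPM in round libraries, from 1, 6 and 3 counts, and 13.4, 12.1 and 10.7 CPM in condensing libraries, so that its place in this order rests on few counts. The imprinted gene *Peg10* went from 3.35, 2.53 and 3.58 to 65.8, 59.6 and 51.2 CPM (4.23 ± 0.16, adjusted p = 7.20e-11). *Aard*, which is on the Sertoli marker list, went from 7.23, 5.90 and 7.03 to 122, 123 and 127 CPM (4.21 ± 0.12, adjusted p = 3.53e-12). Sertoli transcription factors rose alike, *Sox9* with 0.551 to 1.34 CPM in round and 9.23 to 14.1 CPM in condensing libraries and *Wt1* with 0.827 to 2.54 and 20.7 to 26.3 CPM, as did the most abundant Sertoli marker *Clu* (16.6, 16.6 and 13.5 to 214, 194 and 177 CPM, 3.66 ± 0.12, adjusted p = 1.01e-11) and the Leydig enzyme *Cyp17a1* (1.87, 1.40 and 1.52 to 35.95, 23.04 and 26.9 CPM, 4.16 ± 0.23, adjusted p = 2.41e-09). The part of somatic RNA in the largest rises was not tested. The 10 largest falls were smaller and lay in other genes: *Speer4b*, *Speer3*, *Gm17019*, *Gm5591*, *2010109I03Rik*, *Gm4884*, *Ssxb1*, *Gm5114*, *Prss46* and *Hpcal4*. *Speer4b*, of a multicopy family named for glutamate-rich spermatogenic proteins whose copies may share reads, went from 24.8, 19.8 and 28.5 to 6.995, 7.18 and 5.96 CPM (-1.84 ± 0.17, adjusted p = 3.18e-07). *Prss46*, a testis serine protease gene, went from 115, 118 and 107 to 35.4, 40.7 and 39.8 CPM (-1.53 ± 0.10, adjusted p = 7.68e-09).

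The stage change of the *H2al2* KO was then set beside that of WT, in which 4254 genes (31.4%) were higher and 3299 (24.3%) lower of 13566 tested. The 2 comparisons share no library. Over the 13266 genes tested in both, the log2 changes had a Pearson correlation of 0.94 across genes, which are not independent replicates, with SDs of 0.95 in KO and 0.96 in WT. Of the genes higher in KO and tested in WT, 3618 of 4217 (85.8%) were also called higher in WT, and these made up 88.0% of the 4112 WT calls tested in KO. Of the genes lower in KO, 2712 of 3357 (80.8%) were called lower in WT, which made up 82.5% of 3288 WT calls. Direction was shared by 99.1% of the higher and 99.0% of the lower genes. Genes changed at least 2-fold upward in KO had a median log2 change of 1.67 in KO and 1.66 in WT, and those changed downward -1.17 and -1.12. Among the more abundant genes, at 50 CPM or more, 2253 of the 2269 KO calls (99.3%) had the same direction in WT and 1943 (85.6%) were also called. The genes counted include the somatic markers, of which all tested Sertoli, Leydig and endothelium markers were called higher in both genotypes.

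**Figure D5:**
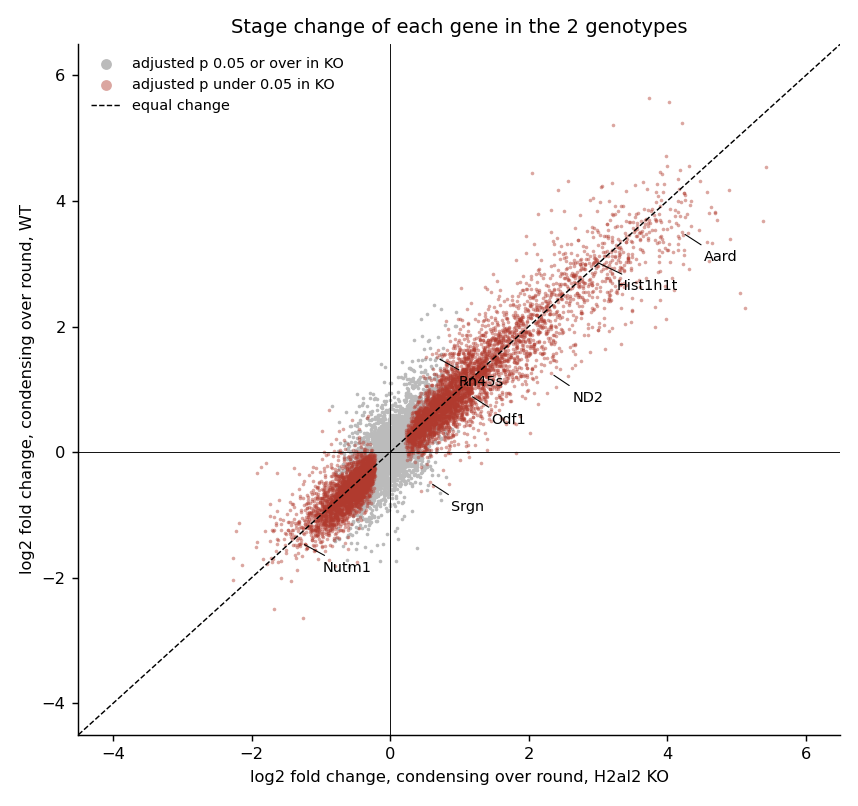
Log2 fold change of condensing over round spermatids in *H2al2* KO (x axis) and WT (y axis) for the 13266 genes tested in both; each point is 1 gene, red where the adjusted p in KO was under 0.05, and the dashed line marks equal change. Points follow the line over the whole range, with *ND2* below it and *Rn45s* above it.

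The difference between the genotypes in stage change was tested itself, as the interaction of stage and genotype over 12 libraries. None of 14248 genes passed an adjusted p of 0.05 in edgeR's test (0%). The smallest adjusted p was 0.9999, and 559 genes (3.92%) had an unadjusted p under 0.05, against 338 by DESeq2, which also called none. This does not show that the stage changes were equal. The 95% interval of the difference stayed within 1 log2 unit of 0 for 9821 genes (68.9%), and for 3578 of the 3624 genes at 50 CPM or more (98.7%), and its median reach on either side was 0.51 and 0.32. For the late risers the differences, as KO minus WT, were 0.23 for *Odf1* (interval -0.20 to 0.66), 0.41 for *Smcp* (-0.01 to 0.84) and 0.11 for *Tssk6* (-0.40 to 0.62). For the fallers they were 0.17 for *Tekt2* (-0.10 to 0.44), 0.10 for *Acrbp* (-0.22 to 0.41) and 0.16 for *Nutm1* (-0.10 to 0.41). For *Prm2* and *Tnp1* they were -0.16 (-0.68 to 0.37) and 0.07 (-0.41 to 0.56).

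The genes with the smallest unadjusted interaction p, none of them called, were *Srgn*, *Muc4* and *ND2* with a more positive change in KO and *Snord15b*, *Corin* and *Gem* with a more negative one. *Srgn*, a proteoglycan of blood cell granules, was the only gene called in opposite directions in the genotypes, with 4.82, 5.90 and 5.38 CPM in KO round, 8.67, 6.78 and 8.19 in KO condensing, 7.10, 8.27 and 8.71 in WT round and 5.70, 5.94 and 5.42 in WT condensing libraries (interaction 1.04, unadjusted p = 0.000583). Its call in KO was lost under 6 of 15 alternatives (adjusted p 0.0531 to 0.0917), which were the DESeq2 Wald test, the fit on 18 libraries, and leaving out round replicate 1 or 3 or condensing replicate 1 or 3. *ND2* in WT held 143, 149.5 and 148 CPM in round and 518, 254 and 272 in condensing libraries, so that WT condensing replicate 1 lay near the KO values and the other 2 below (interaction 1.06, unadjusted p = 0.00137). Without that library *ND2* was the only gene called (1.47, adjusted p = 0.00475). Of the 12 tested mitochondrial genes 8 had an unadjusted interaction p under 0.05 in edgeR's test, against 3.92% of all genes. They come from the same libraries and are not independent. Summed, the genes of the mitochondrial genome held 69409, 46613 and 65929 CPM in the WT condensing libraries. *Rn45s*, the ribosomal RNA precursor, a target of the depletion kit, rose in both genotypes. It went from 10965, 10287 and 7152 to 15105, 15014 and 14658 CPM in KO (0.67 ± 0.15, adjusted p = 0.00108) and from 11534, 8763 and 8613 to 32798, 22122 and 26658 CPM in WT (1.51 ± 0.18, adjusted p = 2.85e-05), with an interaction of -0.84 (unadjusted p = 0.0022) that was not called.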

How the data were processed

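The authors aligned reads to mm10 with STAR 2.7.11b and counted, with HTSeq, reads lying wholly in exons on the transcribed strand, leaving out reads with more than 1 alignment. The deposited values are these raw read counts, 1 file per library, neither normalised nor pooled. Counting settings are those the methods give for the study's RNA-seq, and are taken to hold for these fractions. Each file lists 24456 genes and ends in 5 rows that name no gene. These rows held 34.6% to 45.5% of the reads in the 6 *H2al2* KO libraries and were left out. Counts on genes were 7230653 to 7387043 in *H2al2* KO round, 6872271 to 7400817 in *H2al2* KO condensing, 7326572 to 7852780 in WT round and 5876464 to 6676636 in WT condensing libraries. At this depth a count of 0 allows up to 0.4054 to 0.4365 CPM in a KO library (3 counts, counting error only).

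Stages were compared within each genotype with edgeR 4.0.16 (R 4.3.3), using filterByExpr, TMM normalization, the quasi-likelihood test and Benjamini-Hochberg adjustment over all tested genes at 0.05. The interaction and the difference in *H2afb1* between genotypes were fitted on 12 libraries. CPM were normalised on one TMM scale over these 12. The test was checked on simulated counts. As alternatives the Wald test of DESeq2 1.42.0 was run, besides other scalings and filters, fits on 12 or 18 libraries, no mitochondrial genes, a minimum fold of 1.2, a block for replicate number and leave-one-out fits. WT round replicates 2 and 3 differed little beyond sampling noise (mean chi-square per gene 1.06, other pairs of the 4 groups 1.90 to 6.18). They were kept apart and, as an alternative added after the data were seen, summed.

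Gene positions came from RefSeq on GRCm38.p6, in which 23218 genes matched by symbol, 1081 by a former symbol and 157 not at all. The groups and lists were chosen with earlier results of these data known. Genes were named by rule: *H2afb1*, in each list the 4 most abundant members and the largest called rise and fall, the 10 largest called changes per direction with no overlap and at least 10 CPM, the 3 smallest interaction p per direction, and the 5 most abundant genes per stage. *Tekt2*, *Cfap58*, *Dot1l*, *Azin2*, *Calm2*, *ND1*, *Sycp1*, *Sox9* and *Wt1* were chosen after their values were seen. Only part of the genes that meet the rule are named. Other libraries of the series entered only the fit on 18 libraries, and spermatozoa none.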

Additional observations from a re-analysis of the deposited data

How the results depend on the processing

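The numbers of genes higher and lower in *H2al2* KO condensing spermatids (4296 and 3379) stayed within 1.5 times under the DESeq2 Wald test (3516 and 3298), other scalings, filters and fits, and each library left out (3818 to 4357 and 2897 to 3466). Restricting the count to genes averaging 50 CPM or more left 559 higher and 1710 lower, fewer genes by construction. The 2-fold counts moved with the filter, to 1310 higher and 181 lower with at least 10 counts in every library and to 532 lower with no filter, and stayed between 2166 and 2526 higher and between 342 and 441 lower with a library left out. WT counts ranged from 3687 to 4299 higher and from 2728 to 3532 lower with a library left out. With WT round replicates 2 and 3 summed they were 3855 and 2856, against 4254 and 3299. The interaction called 0 genes in 21 of 22 alternatives and 1 gene, *ND2*, without WT condensing replicate 1, so that leaving out a library gave 0 to 1. The unadjusted count ranged from 364 to 1153 over these leave-outs. DESeq2 size factors moved the median of all genes from 0.04 to -0.01.

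Replicate numbers did not pair the KO libraries (correlations of same-numbered deviations 0.12, 0.12 and -0.31). In WT these correlations were 0.38, -0.26 and 0.41, and condensing replicate 3 with round replicate 2 also gave 0.38. With the replicate block 4165 genes were higher and 3176 lower, 2233 and 325 of them at least 2-fold, and the interaction called 0. WT counts with the replicate block were 4489 and 3606, and the *H2afb1* differences -3.11 and -2.71.

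Of 1207 values of single genes under alternatives, 1181 kept direction and call, 18 lost the call and 3 gained it. The change of *Prm1*, near 0, turned in 5: 0.054 with at least 10 counts, 0.096 and 0.044 without condensing replicate 1 or 2, and 0.013 and 0.055 without round replicate 1 or 2, with a range of -0.22 to 0.096 over libraries left out. Of 597 medians of gene lists under alternatives, 74 moved by more than the spread between replicates and 17 had the other sign. The median of spermatogonium markers turned to -0.012 with no filter, and that of macrophage markers from 0.16 to -0.087 without condensing replicate 3. The cause was not tested. Genes under the floor of 3 counts at both stages cannot be compared at this depth.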

Other observations

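Chromosome X held a higher share of rising genes than any autosome, a description with no test. In *H2al2* KO, 216 of 507 tested X-linked genes (42.6%) were higher and 93 (18.3%) lower in condensing spermatids, with a median log2 change of 0.27 (WT 0.17). Over the 19 autosomes the share of higher genes ran from 25.7% to 38.1% and the median from -0.05 to 0.17. The X-linked riser with the largest fitted change, *Rhox8*, is a Sertoli cell gene, and the part of somatic RNA in the X-linked share was not tested. Among all tested genes the share higher was 40.9% at 2 to 10 CPM and 15.4% at 50 CPM or more. The part of abundance in the X-linked share was not tested either. Of 18 tested genes on the list of X and Y genes of postmeiotic sex chromatin, 2 rose and 4 fell in KO (median -0.19). These shares, 11.1% and 22.2%, stood beside 31.7% and 24.9% of all tested genes. In WT 2 members of the list rose and 10 fell (median -0.46). The genotypes were compared only gene by gene, where no interaction was called.

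The most abundant genes took a larger share of the counts in condensing spermatids, while 17824 to 18018 genes had any count there and 17426 to 17643 in round spermatids. The 10 genes with most counts took 6.87% to 8.08% of the counts in *H2al2* KO round and 11.8% to 12.3% in *H2al2* KO condensing libraries. Mitochondrial ribosomal RNA alone took 3.11% to 3.59% and 6.22% to 7.51% of all counts. In both stages *mt-Rnr2*, *mt-Rnr1*, *Rn45s* and *Prm2* led, followed by *Odf2* in round and by *Akap12*, a scaffold of protein kinase A, in condensing spermatids. *Akap12* held 5101, 5758 and 5042 CPM in round and 6127, 7315 and 7582 CPM in condensing libraries (0.42 ± 0.12 on the log2 scale, adjusted p = 0.00684 by edgeR's test).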
